A study of Mus musculus with 22 samples.

Results

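G-quadruplex (G4) sites were mapped by ChIP-seq with the BG4 antibody in mouse embryonic stem (ES) cells after knockdown (KD) of TERRA, the telomeric repeat-containing RNA, and in cells given a scramble control. The data described here are the 4 deposited G4 peak lists among the 22 samples of the series. They are scramble KD replicates 1 and 2 and TERRA KD replicates 1 and 2, chosen by the antibody and knockdown given in the labels and not by any measured value. The ES cells had the background CAST/Ei x 129/Sv/Jae and were grown with 15% FBS and LIF. The knockdown agent was a locked nucleic acid (LNA) oligonucleotide, scramble or directed against TERRA, and cells were collected after 12 h. Chromatin was fixed with formaldehyde before BG4 capture, and uncaptured chromatin of each condition served as the input control. The methods give 2 biological replicates of each condition, and the labels do not say whether they came from separate cultures or days, so a p-value here measures only the spread between these samples. The lists hold no RNA measurement, so neither the level of TERRA nor ES cell markers could be checked in these 4 samples.

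A G4 is a structure that guanine-rich DNA or RNA with short runs of G can fold into. Its guanines are joined by Hoogsteen bonds into flat tetrads, which stack on each other. BG4 is a single-chain antibody that binds the folded structure rather than one sequence. In mammalian cells, G4 sites mapped with it lie mainly in nucleosome-poor promoters of active genes. TERRA is transcribed from chromosome ends as UUAGGG repeats and can itself fold into a G4. It binds ATRX, a chromatin remodeler that acts at G-rich repeats, and the comparison of TERRA KD with scramble KD asks whether G4 sites on chromatin change when this RNA is removed.

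The sequences below show what the sites discussed in the following paragraphs look like. All are from the GRCm38/mm10 genome, 5′ to 3′ on the strand given. Runs of at least 3 G within the matched G4 motif are in capitals. The flanks on each side are in lower case, even where they hold such runs. The first group comes from promoter peaks that were in both scramble KD lists and in neither TERRA KD list. None of these stretches overlaps an annotated UTR, and positions are the distance of the motif's centre from the transcription start site (TSS).
Tspyl3, chr2:153225214-153225255, plus strand, 207 bp downstream: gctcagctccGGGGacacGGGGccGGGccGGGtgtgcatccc
Rtn2, chr7:19282937-19282984, plus strand, 336 bp downstream: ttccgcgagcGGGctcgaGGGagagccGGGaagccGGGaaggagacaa
Kdelr1, chr7:45872792-45872836, minus strand, at -26 bp: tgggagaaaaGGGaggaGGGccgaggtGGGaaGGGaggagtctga
Nfe2l2, chr2:75703902-75703943, plus strand, 741 bp downstream: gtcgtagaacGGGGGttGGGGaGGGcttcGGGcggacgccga
All 4 hold the canonical motif, 4 runs of at least 3 G joined by loops of 1 to 7 bases.

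The second group comes from promoters with a G4 peak in all 4 lists. Lmo4 and Ltbr are genes that the study examined for G4. The Col16a1 and Rasip1 peaks fell in rank in both TERRA KD lists, and the Olfr117 peak rose.
Lmo4, chr3:144205261-144205295, minus strand, at -23 bp: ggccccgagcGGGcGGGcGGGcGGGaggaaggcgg
Ltbr, chr6:125313970-125314010, plus strand, at -105 bp: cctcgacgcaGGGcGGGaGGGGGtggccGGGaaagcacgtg
Col16a1, chr4:130047658-130047697, plus strand, at -163 bp: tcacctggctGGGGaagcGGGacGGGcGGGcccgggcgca
Rasip1, chr7:45627691-45627733, minus strand, 175 bp downstream: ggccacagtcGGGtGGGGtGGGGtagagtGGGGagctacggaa
Olfr117, chr17:37660609-37660650, plus strand, at -298 bp: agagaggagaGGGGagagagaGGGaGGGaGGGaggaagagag
The third group comes from promoter peaks present only in the TERRA KD lists, and both stretches lie upstream of the start. The Cckbr stretch lies in the peak of TERRA KD replicate 2, with its summit at -1056 bp. It lies outside the peak of TERRA KD replicate 1, which is 953 bp wide with its summit at 70 bp.
Cckbr, chr7:105424461-105424514, minus strand, at -1244 bp: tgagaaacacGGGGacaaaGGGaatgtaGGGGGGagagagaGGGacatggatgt
Btbd35f26, chrX:31336179-31336220, plus strand, at -188 bp: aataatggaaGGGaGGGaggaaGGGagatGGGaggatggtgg
These stretches were chosen for holding the motif, so they do not show how often it occurs in a class, and peaks such as those at Cd5 and Olfr686 held no match. The loops of the Tspyl3, Kdelr1 and Lmo4 examples differ in length and bases.

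The lists differed in depth and in size before any comparison between conditions. After removal of duplicate tags, the deposited headers gave 2961038 tags for scramble KD replicate 1, 24588605 for scramble KD replicate 2, 5759282 for TERRA KD replicate 1 and 13127555 for TERRA KD replicate 2. The shallowest library gave 140119 peaks and the deepest 389434, with 173699 and 225024 for TERRA KD replicates 1 and 2. In replicate 1 the TERRA KD list was thus the longer by 0.31 on the log2 scale, and in replicate 2 it was the shorter by a log2 ratio of -0.79 (exact permutation test over the 4 samples, two-sided, p = 1). With 2 samples against 2, this test cannot give a p below 0.33. In a bulk ChIP, fewer cells with a folded G4 at a site and fewer tags per cell cannot be told apart. Because list length ran in the same order as depth over the 4 lists, numbers are set beside the same values taken from the 140119 top-ranked peaks of each list.

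Peak width also went opposite ways in the replicates. Median width was 599 bp in scramble KD replicate 1, 804 bp in scramble KD replicate 2, 656 bp in TERRA KD replicate 1 and 727 bp in TERRA KD replicate 2. TERRA KD differed from scramble KD by a log2 ratio of 0.13 in replicate 1 and -0.15 in replicate 2 (exact permutation p = 1). Peaks over 2 kb numbered 327, 27402, 2694 and 10941 in the same order, so wide domains were mostly a property of the 2 deeper libraries. At the 44382 sites on assembled chromosomes that all 4 lists shared, 69.6% of peaks were wider after TERRA KD in replicate 1 and 69.5% were narrower in replicate 2. Width, like number, therefore had no common direction.

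In each list the peaks were ranked by the score of the peak caller, -10 times log10 of p, with ties at the highest scores ordered by fold enrichment. The top 3 peaks of the replicate 1 lists lay in satellite-type DNA, and the rank 1 peak of both replicate 2 lists lay in a simple repeat. Scramble KD replicate 1 was led by chr9:35305006-35306071 over the non-coding gene Gm33838, by chr2:98662025-98663186 near Gm33780 and by a block of 38783 bp at chr9:2999802-3038584 beside Mir101c. The last of these held 56740 tags and was absent from the other 3 lists. TERRA KD replicate 1 was led by chr2:98666041-98667523 and by chr14:19415387-19419898 near Gm41101, which ranked 5 and 4 in scramble KD replicate 1, and its rank 3 peak was the same chr2 locus near Gm33780. Scramble KD replicate 2 and TERRA KD replicate 2 shared their rank 1 site, an intronic repeat of the non-coding gene 2700054A10Rik on chromosome 17. That site ranked 445 in scramble KD replicate 1 and was absent from TERRA KD replicate 1. Of the leading peaks, one site stood near the top of every list, a repeat over the non-coding gene Gm40237 on chromosome 4, with ranks 12 and 3 in the scramble KD lists and 4 and 2 in the TERRA KD lists. The rank 2 peak of scramble KD replicate 2, near Hephl1, was also in every list, at rank 13, 2, 9 and 39.

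These leading sites had different kinds of sequence, of which 120 bases around the summit are shown for 5, with runs of at least 3 G or C in capitals, on the plus strand.
chr14 satellite-type peak, chr14:19418756-19418875, rank 4 in scramble KD replicate 1: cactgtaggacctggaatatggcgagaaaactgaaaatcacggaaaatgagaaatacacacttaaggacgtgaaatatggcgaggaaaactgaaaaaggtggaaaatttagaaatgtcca
2700054A10Rik, chr17:13552857-13552976, rank 1 in scramble KD replicate 2: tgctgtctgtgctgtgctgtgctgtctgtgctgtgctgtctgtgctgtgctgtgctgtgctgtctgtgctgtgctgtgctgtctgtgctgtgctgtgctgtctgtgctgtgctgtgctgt
Gm40237, chr4:118547913-118548032, rank 3 in scramble KD replicate 2: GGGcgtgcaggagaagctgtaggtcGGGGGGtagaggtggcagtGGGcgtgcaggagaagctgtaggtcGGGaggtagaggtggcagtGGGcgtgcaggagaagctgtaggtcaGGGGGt
Near Gm32623, chr8:67123306-67123425, rank 3 in TERRA KD replicate 2: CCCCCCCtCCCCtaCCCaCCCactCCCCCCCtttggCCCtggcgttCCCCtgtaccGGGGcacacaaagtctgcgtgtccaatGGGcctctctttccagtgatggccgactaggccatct
Near Gm4601, chr17:82988935-82989054, rank 5 in TERRA KD replicate 2: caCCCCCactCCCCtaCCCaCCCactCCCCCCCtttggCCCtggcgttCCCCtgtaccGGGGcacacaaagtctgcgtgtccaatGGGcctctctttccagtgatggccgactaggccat
The satellite-type and the 2700054A10Rik stretches hold no run of 3 G or C. The Gm40237 stretch holds 6 G runs, but the peak had no match to the motif. The Gm4601 stretch, shown after its values were seen, is nearly the same sequence as the Gm32623 stretch on another chromosome, and both hold the motif on the C-rich strand. The Gm32623 peak ranked 89091 and 396 in the scramble KD lists and 92694 in TERRA KD replicate 1, so its place at rank 3 belonged to TERRA KD replicate 2. Reads from such repeats can map to several copies, and which copy a peak reflects cannot be told from the lists.

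The lists shared most of their top peaks only in the loose sense of being called somewhere in the other list. Of the 1000 top-ranked peaks of scramble KD replicate 1, 45.9% overlapped the top 1000 of TERRA KD replicate 1, 15% those of scramble KD replicate 2 and 21.9% those of TERRA KD replicate 2. Of the top 1000 of scramble KD replicate 2, 26.1% overlapped the top 1000 of TERRA KD replicate 2 and 13.4% those of scramble KD replicate 1. Of the top 1000 of TERRA KD replicate 2, 31.9% overlapped those of TERRA KD replicate 1 and 25.9% those of scramble KD replicate 2. Both scramble KD lists and TERRA KD replicate 1 thus shared more of their top peaks with the list of the same replicate number than with the list of the same condition, and TERRA KD replicate 2 did not. This depended on the number taken: among the top 10000, TERRA KD replicate 2 shared 34.8% with scramble KD replicate 2 and 28.5% with TERRA KD replicate 1, and among the top 100, scramble KD replicate 2 shared 22% with scramble KD replicate 1 and 17% with TERRA KD replicate 2. With peaks of any rank counted, 95.1% of the top 1000 of scramble KD replicate 1 were in scramble KD replicate 2. Repeat-masked bases made up a median of 54% of a top 1000 peak in scramble KD replicate 1, 12.7% in scramble KD replicate 2, 35.5% in TERRA KD replicate 1 and 23.6% in TERRA KD replicate 2, against 36.4% of the sequenced genome.

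**Figure D1:**
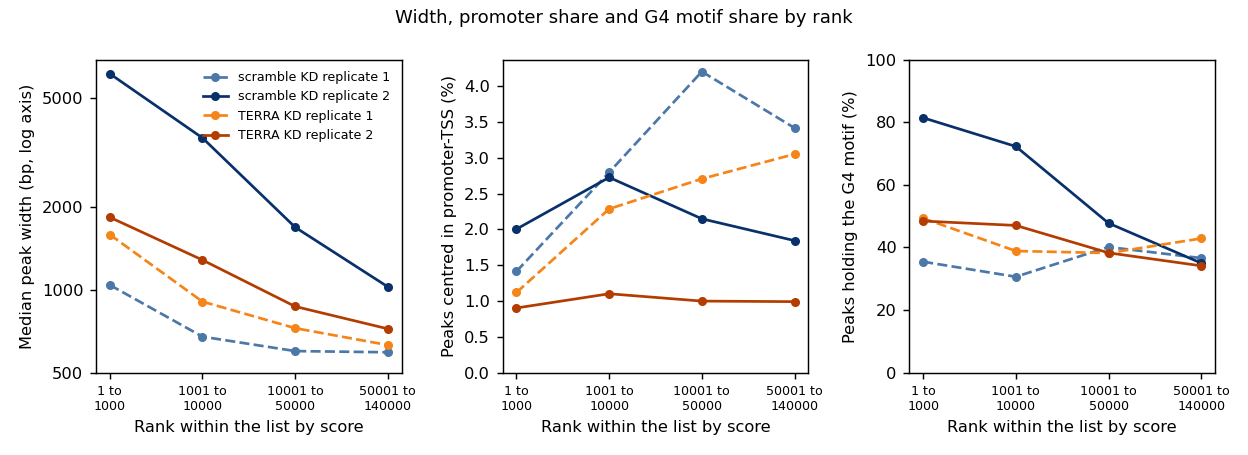
Median peak width in bp (left, log axis), percentage of peaks centred in a promoter-TSS region (middle) and percentage holding the G4 motif (right) in 4 bands of rank by score, 1 line for each of the 4 lists. Width fell with rank in every list, from 6139 to 1027 bp in scramble KD replicate 2, and TERRA KD replicate 2 had the lowest promoter share in every band, between 0.90% and 1.1%.

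Higher-ranked peaks were wider, and in both replicate 2 lists they also held the G4 motif more often. The 1000 top-ranked peaks had a median width of 1043 bp in scramble KD replicate 1, 6139 bp in scramble KD replicate 2, 1592 bp in TERRA KD replicate 1 and 1841 bp in TERRA KD replicate 2. The motif was present in 35.4%, 81.5%, 49.3% and 48.4% of these peaks. A wider peak has more room for a match, and within 100 bp of the summit the shares of the top 1000 were 15.1%, 13.6%, 15.7% and 11.6%, each below the 24.1%, 16.4%, 25.8% and 19.1% of all peaks of the list. The promoter share was not highest at the top: in scramble KD replicate 1 it was 1.41% of the top 1000 and 4.2% of ranks 10001 to 50000.

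Over whole lists, G4 peaks held the motif more often than the genome at large, and the share was somewhat higher after TERRA KD in each replicate. A match to the motif on either strand was found in 37.2% of peaks of scramble KD replicate 1, 33.5% of scramble KD replicate 2, 41.1% of TERRA KD replicate 1 and 34.6% of TERRA KD replicate 2. Genome tiles as long as each list's median peak held it in 9.66% to 12.8%. TERRA KD exceeded scramble KD by 3.88 percentage points in replicate 1 and by 1.08 in replicate 2 (exact permutation p = 0.667), and its mean turned to -0.50 points when equal numbers of peaks were taken. Loops of up to 12 bases raised the shares to 46% to 54.9%. The telomeric repeat, 4 copies of TTAGGG on either strand, was found in 119, 32, 117 and 19 peaks of scramble KD replicates 1 and 2 and TERRA KD replicates 1 and 2. These are 0.085%, 0.0082%, 0.067% and 0.0085% of peaks, against 0.0059% to 0.0078% of genome tiles of the same lengths, so the repeat was more frequent than in the genome in the replicate 1 lists and close to it in the replicate 2 lists. Runs of 10 TG copies were in 20.4%, 10.6%, 16.3% and 12.3% of peaks, and 4 copies of GGGA were in 5.71%, 2.17%, 3.78% and 2.67%. Both repeats were more frequent in the 2 replicate 1 lists than in the 2 replicate 2 lists, whatever the knockdown. A match is a description of the sequence and does not show that a G4 was folded there.

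By genomic feature, intergenic and intronic DNA held most peaks, and the promoter share was lower after TERRA KD in each replicate. Peaks centred in a promoter-TSS region, which covers 1000 bp before and 100 bp after the start of a curated RefSeq transcript, made up 3.59% of scramble KD replicate 1, 1.8% of scramble KD replicate 2, 3% of TERRA KD replicate 1 and 1.06% of TERRA KD replicate 2. The 2 conditions overlapped, since TERRA KD replicate 1 lay above scramble KD replicate 2. The log2 ratio was -0.26 in replicate 1 and -0.77 in replicate 2 (exact permutation p = 0.667). Among the 20000 top-ranked peaks the shares were 3.12%, 2.57%, 2.47% and 1.11%, and the conditions did not overlap (log2 ratios -0.33 and -1.22, exact permutation p = 0.33, the smallest possible). Set against the share of the sequenced genome in these regions, 1.19%, promoter peaks were over-represented 3.02-, 1.52- and 2.53-fold in the first 3 lists and stood at 0.89-fold in TERRA KD replicate 2. Coding exons held 4.48%, 4.31%, 6.64% and 4.62% of peaks and were higher after TERRA KD in both replicates (log2 ratios 0.57 and 0.10, exact permutation p = 0.33), but with equal numbers of peaks the shares were 4.48%, 6.22%, 6.81% and 5.06% and the replicates went opposite ways. The 5′ UTR share was 0.93%, 0.42%, 0.94% and 0.20%, nearly equal in replicate 1 and lower after TERRA KD in replicate 2.

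G4 peaks clustered just downstream of the TSS in 3 lists and much less so in TERRA KD replicate 2. Around the most upstream start of 26182 genes, summits were densest 100 to 300 bp downstream. The highest 100-bp bin held 5.13 summits per 100 TSS in scramble KD replicate 1, 5.98 in scramble KD replicate 2, 6.05 in TERRA KD replicate 1 and 1.57 in TERRA KD replicate 2. Relative to the mean beyond 2 kb these heights were 8.35-, 3.09-, 6.78- and 1.64-fold. TERRA KD replicate 1 thus had a summit density as high as the scramble KD lists, and TERRA KD replicate 2 stood apart from the other 3.

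**Figure D2:**
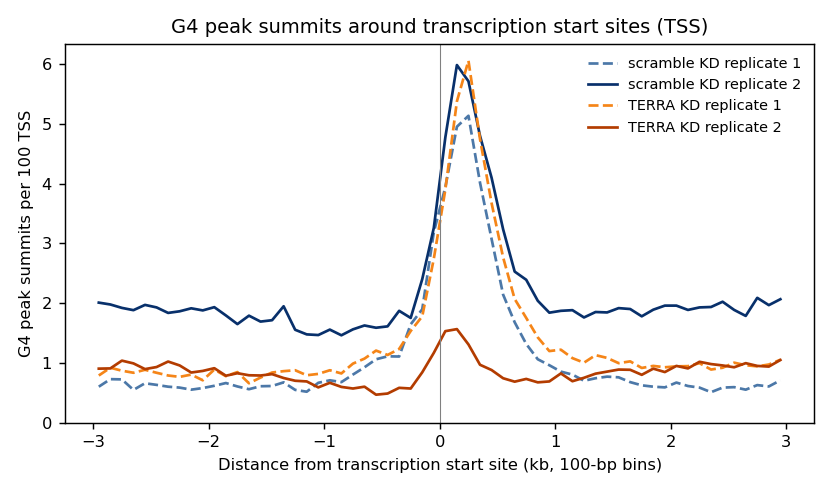
Number of G4 peak summits per 100 TSS (y axis) in 100-bp bins from 3 kb upstream to 3 kb downstream of the TSS of 26182 genes (x axis, kb), 1 line for each of the 4 lists. All lines but 1 reach between 5.13 and 6.05 just downstream of the TSS, and the line of TERRA KD replicate 2 reaches 1.57.

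The share of genes with a G4 peak within 1 kb of the TSS followed the same pattern. It was 41.2% in scramble KD replicate 1, 64.1% in scramble KD replicate 2, 48.5% in TERRA KD replicate 1 and 22.1% in TERRA KD replicate 2. TERRA KD was higher by 7.33 percentage points in replicate 1 and lower, at -42 points, in replicate 2 (exact permutation p = 0.667). With the 140119 top-ranked peaks of each list the shares were 41.2%, 33.3%, 40% and 14.3%, with differences of -1.24 and -18.9 points. At equal list length both replicates were therefore lower after TERRA KD, by unequal amounts, and TERRA KD replicate 1 stayed above scramble KD replicate 2.

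TERRA KD replicate 2 differed from the other lists at open TSS. Of the 26182 TSS, 14951 had an ATAC-seq peak, which marks accessible DNA, in all 4 ATAC lists of the series, and 8583 had one in none. A G4 peak lay within 1 kb of 55.5%, 70.3%, 60.9% and 13.5% of the open TSS in scramble KD replicates 1 and 2 and TERRA KD replicates 1 and 2. At the closed TSS the shares were 15.1%, 48.8%, 23.3% and 31.9%. Thus 3 lists had G4 peaks at a larger share of open than of closed TSS, and TERRA KD replicate 2 at a smaller share. With equal numbers of peaks the open TSS stood at 55.5%, 31.3%, 49% and 6.91% and the closed TSS at 15.1%, 30.2%, 20.2% and 23.3%, so that scramble KD replicate 2 was then nearly level between the classes. Over whole lists, 11.7%, 11.7%, 15.4% and 8.07% of G4 peaks overlapped an ATAC peak of the same condition and replicate number, with differences of 3.65 points in replicate 1 and -3.62 in replicate 2 (exact permutation p = 1). The ATAC libraries were separate from the G4 libraries and share only the condition and the number.

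Base composition moved with this difference. When the 26182 TSS were divided into quintiles by GC content, the highest quintile, with GC of 62.5% to 82.4%, had a G4 peak in 82.1%, 82.2%, 82.8% and 12.2% of cases in scramble KD replicates 1 and 2 and TERRA KD replicates 1 and 2. In the middle quintile the shares were 36.2%, 73.5%, 54.9% and 32.5%, and in the lowest quintile 6.49%, 21.8%, 7.54% and 12.5%. In the first 3 lists the share rose with GC content, whereas TERRA KD replicate 2 was highest in the second quintile, at 34.1%, and fell beyond it. With equal numbers of peaks the highest quintile stood at 82.1%, 41.7%, 70.8% and 5.69% and the middle quintile at 36.2%, 44.7%, 44.1% and 23.4%, so the near equality of the first 3 lists was lost, scramble KD replicate 2 no longer rose beyond the middle quintile, and TERRA KD replicate 2 was still the lowest list. Among closed TSS of the fourth quintile, 231 in number, the shares were 79.7%, 99.6%, 94.8% and 79.2%, and with equal numbers of peaks they were 79.7%, 96.1%, 92.6% and 68.4%. In this class TERRA KD replicate 2 was the lowest list, and was close to scramble KD replicate 1 only with all peaks counted. At the 80 closed TSS of the highest quintile they were 90%, 87.5%, 92.5% and 22.5%. GC content and openness thus each moved with the low share of this list. Their part in the result was not tested.

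**Figure D3:**
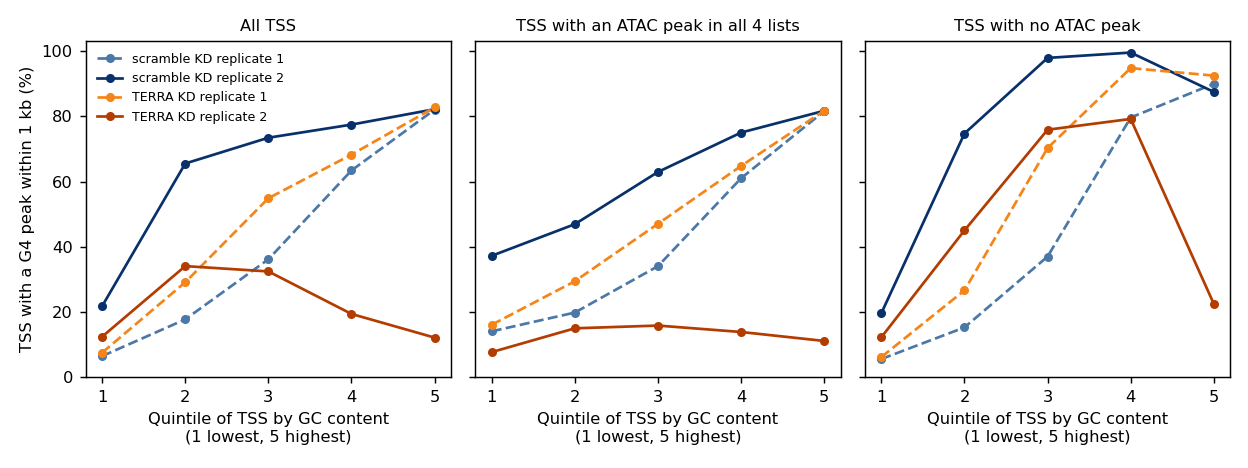
Percentage of TSS with a G4 peak within 1 kb (y axis) by quintile of TSS ranked by GC content (x axis, 1 lowest and 5 highest), for all 26182 TSS, for the 14951 with an ATAC peak in all 4 ATAC lists and for the 8583 with none, 1 line for each G4 list. In the highest quintile of all TSS, 3 lists lie between 82.1% and 82.8% and TERRA KD replicate 2 lies at 12.2%.

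Sites found in both scramble KD lists were examined for their presence after TERRA KD. Of 78299 such sites on assembled chromosomes, 17.3% were missing from TERRA KD replicate 1 and 36.4% from TERRA KD replicate 2. In the reverse direction, of 92410 sites in both TERRA KD lists, 47.5% were missing from scramble KD replicate 1, the shallowest library, and 8.29% from scramble KD replicate 2, the deepest. Among the 78299 sites of both scramble KD lists, 17.7% and 72% of the 2954 promoter-TSS sites were missing from TERRA KD replicates 1 and 2. For the 735 sites in 5′ UTRs these shares were 16.3% and 77.1%, and for the 36346 intergenic sites 19% and 35.3%. With all GC contents pooled, TERRA KD replicate 1 therefore missed promoter sites about as often as all sites, and the excess at promoters lay in TERRA KD replicate 2. In the highest GC quintile of sites, which held 2632 of the promoter sites, both lists had an excess at promoters. There TERRA KD replicate 1 missed 17.55% of promoter sites against 11.11% of all sites, and TERRA KD replicate 2 missed 76.41% against 43.86%. The lower quintiles held 56 to 111 promoter sites each, and in TERRA KD replicate 1 they went both ways. At TSS, 9084 had a peak in both scramble KD lists, of which 15.9% lacked one in TERRA KD replicate 1 and 71.4% in TERRA KD replicate 2. In the open class these shares were 17.6% and 81.8%, and in the closed class 12.8% and 26.5%.

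**Figure D4:**
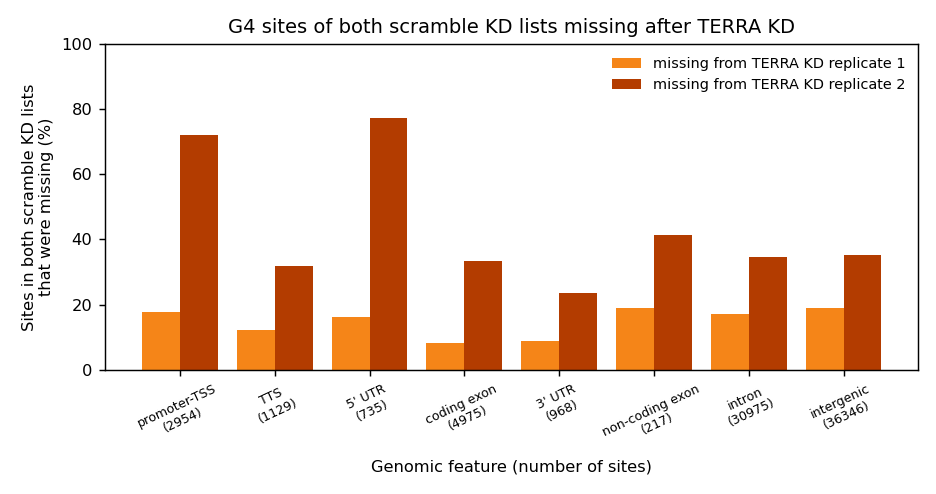
Percentage of the G4 sites present in both scramble KD lists that were missing from TERRA KD replicate 1 and from TERRA KD replicate 2 (y axis), by genomic feature with the number of sites in parentheses (x axis). Bars for TERRA KD replicate 1 lie between 8.36% and 19%, and those for TERRA KD replicate 2 reach 72% at promoter-TSS and 77.1% at 5′ UTR sites.

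Sites that changed in the same direction in both replicates were defined by presence. A site was called lost where both scramble KD lists and neither TERRA KD list had a peak, and gained in the reverse case. Of 477964 sites in the merged lists, 8130 were lost, which is 1.7% of all sites, and 3506 were gained, which is 0.734%. Sites present in all 4 lists numbered 44444, and 155763 sites, 32.6%, were in scramble KD replicate 2 alone. The balance of lost and gained depended on list length: with the 140119 top-ranked peaks of each list, 4224 sites were lost and 8671 gained. A difference in the number of lost and gained sites therefore cannot be read as a direction of change.

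Lost sites lay at promoters more often than gained or shared sites did. Promoter-TSS regions held 5.83% of lost, 1.31% of gained and 1.76% of shared sites. Median GC content was 48.4%, 46% and 49.3% in the same order, and the G4 motif was present in 58.9%, 52% and 51.3%. Site length differed, with medians of 971, 699 and 1300 bp, and within 100 bp of a summit the motif was found in 32.3%, 43% and 19.9%, which puts gained above lost sites. Lost sites overlapped an ATAC peak in 21.5% to 25.8% of cases over the 4 ATAC lists, gained sites in 5.68% to 8.28% and shared sites in 13.8% to 19.8%. Both changed classes came from the weaker part of their lists. The median lost peak stood at percentile 38.6 of scramble KD replicate 1, with 5 tags, and at percentile 39.3 of scramble KD replicate 2, with 25 tags. The median gained peak stood at percentiles 42.8 and 40.3 of the TERRA KD lists, with 8 and 12 tags, whereas the median shared site stood between percentiles 70.7 and 79.9. At 5 tags a peak is near the limit of what the caller could find, so absence from a list does not show that no G4 was there.

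At gene starts, 1240 of 26182 TSS were lost, or 4.74%, and 65 were gained, or 0.248%. With equal numbers of peaks the counts were 750 and 126, so lost TSS remained more numerous than gained ones, unlike the sites as a whole. Of the lost TSS, 1104 were in the open class of 14951, or 7.38%, and 68 in the closed class of 8583, or 0.79%. Only a TSS with a peak in both scramble KD lists could be lost, and of these the lost share was 16.1% of 6852 open and 6.04% of 1126 closed TSS. Lost TSS had a median GC content of 60.3% and 67.9 CpG per kb, against 54.5% and 37 over all genes, and 69.4% had the G4 motif within 1 kb against 54.9%. Scramble KD peaks were themselves more frequent at GC-rich TSS, at 82.1% and 82.2% of the highest GC quintile and 6.49% and 21.8% of the lowest. The comparison with all genes therefore does not separate loss from having a scramble KD peak. The 65 gained TSS had a GC content of 52% and the motif in 53.8%, close to all genes. The 2398 TSS with a peak in all 4 lists had the motif most often, in 72.8%, with fewer CpG, 31 per kb. Lost TSS were thus mostly open, CpG-rich promoters. Of the 9084 TSS with a peak in both scramble KD lists, 6481 lacked one in TERRA KD replicate 2 and 1445 in TERRA KD replicate 1, so the number called lost was set mainly by TERRA KD replicate 1.

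Accessibility itself and ATRX were read at these TSS from the other assays of the series. An ATAC peak lay at 90.5%, 92.9%, 92.6% and 93.3% of lost TSS in the ATAC lists of scramble KD replicates 1 and 2 and TERRA KD replicates 1 and 2, so the share with open chromatin was about the same in all 4. ATRX peaks lay at 0.81%, 0.16%, 10.9% and 6.53% of lost TSS in the corresponding ATRX lists. They lay at 1.21%, 0.83%, 9.38% and 7.92% of TSS with a G4 peak in all 4 lists and at 0.76%, 0.70%, 5.11% and 1.77% of TSS with a G4 peak in none. ATRX peaks were more frequent in both TERRA KD lists than in both scramble KD lists in each of these classes. H3K9me3, the heterochromatin mark, had a peak at 0.89% to 2.5% of lost TSS over its 4 lists.

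By gene class, most lost starts were protein-coding, as most starts were. Of 21000 protein-coding TSS, 1098 were lost, or 5.23%, and 50 gained, or 0.24%, against 4.74% and 0.25% of all TSS. Of 3319 lncRNA TSS, 112 were lost, or 3.4%, and 13 gained, or 0.39%. Of 1228 miRNA TSS, 21 were lost, or 1.71%, and none gained. Their shares with a G4 peak were 28.9%, 62.9%, 41% and 39.3%, so this class did not show the low value of TERRA KD replicate 2. Of 403 tRNA genes, 10 were lost, or 2.48%, and none gained. The 33 annotated rRNA genes, which encode ribosomal RNA and are repeated copies, had a G4 peak in 33, 26, 25 and 16 cases in scramble KD replicates 1 and 2 and TERRA KD replicates 1 and 2, and none was lost or gained.

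Several developmental and housekeeping families had fewer TSS with a G4 peak in TERRA KD replicate 2 than in the other lists, as all TSS did. Of 39 Hox genes, the homeodomain factors of body patterning, 26, 37, 31 and 5 had a G4 peak at the TSS in scramble KD replicates 1 and 2 and TERRA KD replicates 1 and 2, and 2 were lost, Hoxb5 and Hoxa7. Of 44 Fox transcription factor genes, the numbers were 36, 41, 38 and 9, with 2 lost. The 19 Wnt ligand genes had 17, 19, 18 and 6, with none lost. The 86 genes of cytosolic ribosomal proteins had 26, 36, 29 and 2, with 4 lost. In TERRA KD replicate 2 the shares with a peak were 12.8% of Hox, 20.5% of Fox, 31.6% of Wnt and 2.33% of ribosomal protein genes, against 22.1% of all TSS. Fox genes were thus near the share of all TSS and Wnt genes above it. The lost shares of 5.13% of Hox, 4.55% of Fox and 4.65% of ribosomal protein genes are near the 4.74% of all TSS.

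Keratin genes, which encode intermediate filaments of epithelia and hair, were the contrasting family. Of 106 keratin genes, 49, 91, 71 and 73 had a G4 peak at the TSS in scramble KD replicates 1 and 2 and TERRA KD replicates 1 and 2. None was lost or gained and 41 had a peak in all 4 lists, or 38.7% against 9.16% of all genes. Olfactory receptor genes, 1125 in number, had a peak in 4.09%, 19.4%, 4.89% and 9.51% of cases, with 4 lost and 2 gained. In both families TERRA KD replicate 2 was not the lowest list.

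Lists tied to ES cells, G4 biology, telomeres and ATRX gave at most 5 lost TSS each, and the lost share varied between lists. Of 22 pluripotency genes, 11, 17, 14 and 3 had a G4 peak at the TSS in the 4 lists, and 1 was lost, Tdgf1, a co-receptor for Nodal, with none gained. Of 18 genes known for promoter G4 motifs, such as Myc, Kit and Hras, 12, 15, 13 and 4 had a peak, 3 had it in all 4 lists, and none was lost or gained. Of 17 telomere genes, 6, 7, 4 and 1 had a peak and 1 was lost, Terf2, a subunit of the shelterin complex that covers telomeres. Of 15 genes of G4 helicases, which unwind the structure, 7, 9, 8 and 1 had a peak and none was lost. Of 19 genes of ATRX, DAXX and H3K9 methylation, 12, 15, 11 and 1 had a peak and 5 were lost, or 26.3%. These were H3f3a, which encodes histone H3.3, the H3.3 chaperone gene Hira, the H3K9 methyltransferase genes Suv39h2 and Suv39h1, and the DNA methyltransferase gene Dnmt3b. With equal numbers of peaks 1 of the 19 was lost, and no pluripotency or telomere gene. Of 16 germline genes silenced in ES cells, 14, 15, 11 and 5 had a peak and 4 were lost, or 25%. The lost genes were Ddx4, Mov10l1, Slc25a31 and Hormad1, and with equal numbers of peaks 2 of the 16 were lost. Of 69 replication-dependent histone genes, 14, 20, 9 and 4 had a peak and 4 were lost. The lists are small, and these counts are descriptions beside the 4.74% of all TSS that were lost.

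The strongest lost TSS, ordered by the lower of the 2 within-list percentiles, were high in both scramble KD lists. At Cd5, a receptor of lymphocytes, the peak had a -log10 p of 12.6 in scramble KD replicate 1 and 31.1 in scramble KD replicate 2, at percentiles 96.4 and 97.5 of these lists. At Synpo, an actin-binding protein gene, -log10 p was 11.3 and 23.2. At Tspyl3, a nucleosome assembly family gene whose motif is shown above, it was 10.2 and 19.8, with fold enrichment of 27.1 and 7.28. These 3 TSS had peaks at percentile 92.9 or higher of both scramble KD lists and no peak within 1 kb after TERRA KD. Rtn2, a reticulon of the endoplasmic reticulum, had -log10 p of 12.2 and 16.1. Rhbdl2, a rhomboid protease gene, had 9.43 and 17. Kdelr1, the receptor that returns proteins to the endoplasmic reticulum, had 7.26 and 54.8, and the span of its peaks held 8 motif matches. The value of 54.8 is that of a peak 5863 bp wide with its summit at -3246 bp, so it is not a signal at the start itself. Summits beyond 1 kb of the TSS were also found at Cd5, at -1329 bp in scramble KD replicate 1. At Zcwpw1 they lay at -1405 and -1387 bp in scramble KD replicates 1 and 2. In scramble KD replicate 2 they lay at 1176 bp at Synpo, 1008 bp at Tspyl3, 1206 bp at Rtn2 and -1593 bp at Col5a3. The replicate 2 scores of these genes are thus not signals at the start itself either. Rhbdl2 had its summits at 152 and -44 bp. Col5a3, a collagen chain gene, and Zcwpw1, a histone reader of meiosis, completed the group, with -log10 p of 8.77 and 14.3, and 7.65 and 16.2. The peaks at Cd5, Rhbdl2 and Col5a3 held no motif match. Of these 8 TSS, 7 had an ATAC peak in at least 2 of the ATAC lists, and Cd5 had none. Even the strongest of them rested on 10 to 16 tags in the shallow scramble KD replicate 1.

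The gained TSS that stood highest in both TERRA KD lists were weaker. At Olfr686, an olfactory receptor gene, -log10 p was 8.43 in TERRA KD replicate 1 and 6.03 in TERRA KD replicate 2. At Fibin it was 6.89 and 5.07, and at Car5b, a mitochondrial carbonic anhydrase gene, 6.6 and 7.31. At Slc2a12, a glucose transporter gene, it was 8.84 and 4.01. None of these had a G4 peak within 1 kb in a scramble KD list. Arhgef33, Cckbr, the receptor for cholecystokinin and gastrin, Soga3 and Btbd35f26 had values between 3.41 and 7.26. Over the span of the peaks of both lists, only Slc2a12, Cckbr and Btbd35f26 held the motif, each with 1 match. At Cckbr the match lay in the peak of TERRA KD replicate 2 and outside that of TERRA KD replicate 1. The gained peaks held 8 to 30 tags.

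Of 44382 shared sites, 3035 fell in rank by at least 20 percentile points in both replicates, or 6.84%, and 2674 rose, or 6.02%. The site's score was ranked within each list among the shared sites, so that lists of different depth could be set side by side. Sites that fell lay at promoters in 3.62% of cases and sites that rose in 0.75%, against 1.76% of all shared sites. Put the other way, 14.1% of the 779 shared promoter sites fell and 2.57% rose, whereas 5.94% of the 20677 intergenic sites fell and 6.99% rose. Sites that fell held the G4 motif in 62.8% of cases and those that rose in 39.1%, against 51.3%, but the sites that fell were also longer, with a median of 1918 bp against 1001 bp. Similar shares of the shared sites thus moved each way, and the difference between features is a description with no test.

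Within replicates, the rank of promoter sites changed little in one and fell in the other. The median percentile of the 779 shared promoter sites was 48.8 in scramble KD replicate 1, 61.2 in scramble KD replicate 2, 50.4 in TERRA KD replicate 1 and 36.4 in TERRA KD replicate 2. The difference was 1.61 points in replicate 1 and -24.9 in replicate 2 (exact permutation p = 0.667). Ranked by fold enrichment in place of the score, the medians were 40.2, 37.9, 30.2 and 23.2, so that both TERRA KD lists lay below both scramble KD lists (differences -10 and -14.7 points, exact permutation p = 0.33, the smallest possible). The 3148 shared sites in coding exons moved by a median of 10.8 points in replicate 1 and -12.3 points in replicate 2. By score at -log10 p of at least 5 the promoter differences were -1.86 and -15.2 points, lower in both replicates. The direction in replicate 1 thus depended on the setting, and that in replicate 2 was the same in these 3.

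**Figure D5:**
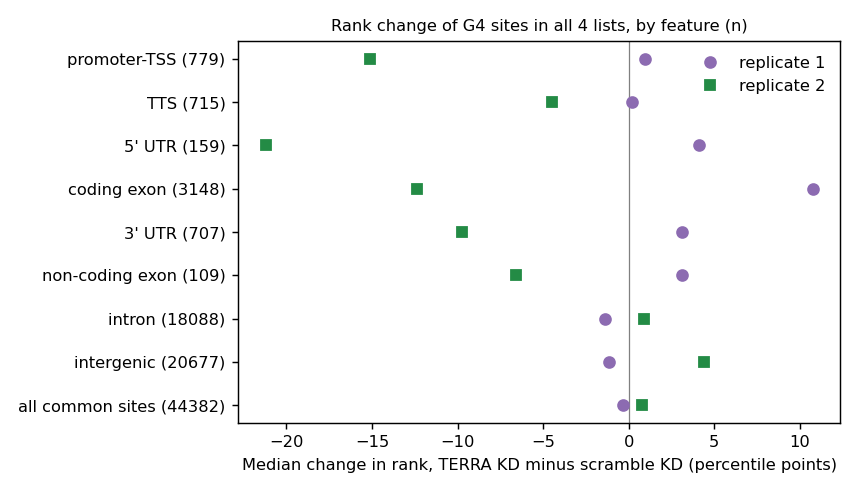
Median change in rank from scramble KD to TERRA KD, in percentile points (x axis), of the G4 sites present in all 4 lists, by genomic feature with the number of sites in parentheses (y axis); circles are replicate 1 and squares replicate 2. Promoter-TSS sites changed by 0.95 points in replicate 1 and -15.1 in replicate 2, and 5′ UTR sites by 4.11 and -21.2.

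Among shared sites at gene starts, the ones that fell most were at Col16a1, Gata5, Pard3, Rasip1 and Angptl2. At Col16a1, a collagen gene, the percentile among shared sites was 86.9 and 91.9 in the scramble KD lists and 18.7 and 18.3 in the TERRA KD lists. At Gata5, a transcription factor gene of endoderm and heart, it was 85.9, 82.7, 23 and 6.16. At Pard3, a cell polarity gene, it was 81.3, 61.6, 14.6 and 2.02. All 4 values of each gene were apart between conditions, as the choice of these genes required. Rasip1, a Ras-interacting gene of vessels, stood at 82.6, 76.3, 7.93 and 16.9, and Angptl2, a secreted angiopoietin-like factor gene, at 66.1, 72.2, 7.19 and 1.

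The sites that rose most were at Cnga3, Krt27, Pcdha7, Olfr117 and Krt31. At Cnga3, a channel of cone photoreceptors, the percentile was 18.2 and 32.9 in the scramble KD lists and 85.8 and 84.6 in the TERRA KD lists. At the hair keratin gene Krt27 it was 13, 17.9, 69 and 62.1, and at Krt31 it was 16.7, 48.1, 62.8 and 89. At the protocadherin gene Pcdha7 it was 33.5, 6.45, 88.3 and 50.1, and at the olfactory receptor gene Olfr117 it was 6.09, 54.6, 73.5 and 96.8. In scramble KD replicate 1 the peaks of these 5 genes held 4 to 6 tags.

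The genes that the study examined for G4 fell into 4 patterns by peaks within 1 kb of the TSS. The paper read G4 from coverage normalized to input, and not always at the TSS. It shows lower coverage at TERRA target sites in or upstream of Lmo4, Bcl6 and Dnajb6, and in the first exon and intron of Ppard, Cxcl14 and Ltbr. The patterns given here are therefore not a check of those stretches. Dnajb6, a co-chaperone gene, Cxcl14, a chemokine gene, and Nfe2l2, the regulator of antioxidant genes, were lost. At Nfe2l2 the peak had -log10 p of 9.31 in scramble KD replicate 1 and 7.05 in scramble KD replicate 2, and no G4 peak lay anywhere over the gene after TERRA KD. At Cxcl14 the values were 6.13 and 6.9, and at Dnajb6 they were 2.11 and 3.2, at percentiles 1.21 and 30.2, near the caller's limit. Over their gene bodies both still had peaks, 3 and 2 for Cxcl14 and 3 and 5 for Dnajb6 in TERRA KD replicates 1 and 2. The best -log10 p over these genes in TERRA KD replicate 1 was 11.7 and 11.9, above the 6.13 and 8.15 of scramble KD replicate 1. Lmo4, a LIM domain regulator of transcription, and Ltbr, the lymphotoxin beta receptor, kept a peak in all 4 lists. At Ltbr -log10 p was 10.4 and 45.1 in the scramble KD lists and 6.98 and 3.25 in the TERRA KD lists, and at Lmo4 it was 2.94, 3.64, 5.58 and 2.08. Ltbr was thus lower in both TERRA KD lists than in both scramble KD lists, and Lmo4 was not. The score depends on depth, so these values are not scaled between lists. Ppard, a lipid-sensing nuclear receptor gene, Shroom4 and Itpr3, a calcium channel of the endoplasmic reticulum, had a peak in 3 lists and lacked one only in TERRA KD replicate 2. In Ppard -log10 p was 8.67, 3.81 and 2.24 in the 3 lists with a peak. Bcl6, a transcriptional repressor gene, had a peak only in scramble KD replicate 1 and TERRA KD replicate 1. Over the whole gene bodies of Ppard and Itpr3, 18 and 9 G4 peaks were still listed in TERRA KD replicate 2. Because these genes were chosen by the study on these samples, they are not independent evidence of a direction.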

How the data were processed

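G4 ChIP-seq was analysed in 4 samples, grouped by title and knockdown label (the source field of the scramble KD samples reads TERRA KD). The authors trimmed reads with Trim Galore 0.5.0, aligned them to mm10 with Bowtie2 2.3.4.1 and removed duplicates with SAMtools 1.9. Per the file headers, G4 peaks were called with MACS 1.4.2 at p of 0.01, each replicate alone, both replicates of a condition against 1 input, with the larger library scaled to the smaller, so condition and input cannot be told apart. ATRX and H3K9me3 lists came from MACS 1.4.3 and ATAC lists from MACS 2.2.7.1. Each deposited list gives the tag count per peak, a score (-10 times log10 p), a fold enrichment over input as a ratio and an FDR in percent, which was not used. The deposited ATAC lists give pileup signal, fold enrichment and -log10 p, and only their positions were used here, as for ATRX and H3K9me3.

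Peaks were annotated with curated RefSeq transcripts (GRCm38), 26182 genes with 1 TSS each. The 4 lists were merged into sites by overlap of at least 1 bp. Conditions were compared with an exact two-sided permutation test over the 4 samples (smallest p 0.33, so none was adjusted) for 7 values and for 8 genomic features, with no scaling of levels between lists, using Python 3.11.15, numpy 2.4.6 and pandas 2.3.3. The scripts were tested on simulated data. No interval is given because lists hold no counts outside peaks. Alternatives were a -log10 p of at least 5, equal numbers of peaks, the 20000 top-ranked peaks, other windows and steps, autosomes and X only, the replicate block and leaving out a replicate. The names of the deposited lists put the replicate 1 libraries on one sequencing lane label and the replicate 2 libraries on another. Deviations from the condition mean correlated between same-numbered samples (r = 0.565 over 2663 stretches), so values are given within each number. Named genes were the top 3 peaks of each list, the 8 lost and 8 gained protein-coding TSS with the highest lower percentile, the 5 shared TSS sites that fell and rose most, and genes named for G4 in the study, of which not all are reported here. The members and lists were chosen with earlier results of these data known.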

Additional observations from a re-analysis of the deposited data

How the results depend on the processing

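The 4 libraries differed in depth by a wide margin, and every difference between conditions rested on 2 samples each, so no test here could pass a threshold of 0.05. Leaving out a replicate left 1 value per condition and no test. The log2 ratio of peak number then ranged from -0.79 to 0.31, that of width from -0.15 to 0.13, the difference in TSS with a peak from -42 to 7.33 points, in motif share from 1.08 to 3.88 points, in ATAC overlap from -3.62 to 3.65 points and in promoter rank from -24.9 to 1.61 points, while the promoter share stayed negative, from -0.77 to -0.26. TERRA KD replicate 2 set the sign of the means of number, width, TSS and promoter rank. With the replicate block (exact sign-flip over 2 pairs, smallest p 0.5) no call changed: p was 0.5 for promoter share (-0.51) and motif share (2.48 points) and 1 for the other 5 results. The mean difference in motif share reversed to -0.50 points with equal numbers of peaks and to -7.92 among the 20000 top-ranked, and that in ATAC overlap reversed to -1.47 points at -log10 p of at least 5, -2.2 with equal numbers and -4.3 among the 20000 top-ranked. Lost and gained sites numbered 5132 and 1426 at -log10 p of at least 5 and 4224 and 8671 with equal numbers, and 8296 were gained in windows of 500 bp. Gained TSS numbered 14 at -log10 p of at least 5, and with equal numbers 750 TSS were lost and 126 gained. Shared sites that fell and rose numbered 5814 and 5601 at 10 points, 1403 and 1140 at 30 points, and 4798 and 4260 by fold enrichment. Of 72 values over all results and settings, 48 kept their direction or, for counts, stayed near the main count, while 10 reversed and 14 moved in size. For the 7 compared values only direction was judged. The mean difference in TSS with a peak, for example, went from -17.3 points to -2.9 among the 20000 top-ranked peaks and was counted as kept. The causes of these shifts were not tested.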

Other observations

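The share of peaks on chromosome Y, which held 61 to 216 peaks of a list, was lower after TERRA KD in both replicates, by log2 ratios of -0.71 and -0.42, the largest change of any chromosome in each. The paper gives the ES line as XX, so these few peaks are not evidence of G4 sites on a Y chromosome of these cells. Among the other chromosomes, in replicate 1 the share on chromosome 6 fell by 0.30 on the log2 scale and that on chromosome X by 0.23, and the largest rise was 0.17 on chromosome 11. In replicate 2 these values were 0.02, 0.08 and -0.09, and no chromosome but Y changed by more than 0.09. Chromosomes 6 and 8 also held many of the strongest peaks: 24 of the 100 top-ranked peaks of scramble KD replicate 1 lay on chromosome 6, and 42 of those of scramble KD replicate 2 on chromosome 8.

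Other loci stood near the top of several lists. A peak over Duxf3, a copy of the Dux homeobox repeat that is active in the earliest embryo, ranked 48 and 8 in the scramble KD lists and 6 and 8 in the TERRA KD lists. A peak over AY036118, a repeat with ribosomal RNA sequence, ranked 6 and 11 in the scramble KD lists and 16 in TERRA KD replicate 1 and was absent from TERRA KD replicate 2. Ahnak2 ranked 11 and 13 in the scramble KD lists and 24 in TERRA KD replicate 1 and was likewise absent from TERRA KD replicate 2. These loci were chosen after their values were seen.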
